A study of Mus musculus with 6 samples.

Results

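The transcripts of 40 genes that are made at set points of the cell cycle were followed in liver macrophages of mice on a steatohepatitis diet, 20 genes of S phase and 20 genes of G2 and mitosis. The genes were chosen by name as textbook members of each phase, with earlier results of these data known. All 40 were among the 13886 genes of the expression table. Bulk RNA sequencing was done on Lyz2cre/+.Egr2fl/fl mice (n = 3 libraries) and Egr2fl/fl mice (n = 3 libraries), labelled as biological replicates. In Lyz2cre/+.Egr2fl/fl mice, Cre recombinase is made from the Lyz2 gene, which is active in myeloid cells, and cuts both loxP-flanked (fl) alleles of Egr2, a zinc finger transcription factor. Egr2fl/fl mice carry the same alleles without Cre, which means that loss of Egr2 and the presence of Cre in the Lyz2 locus cannot be told apart. Both groups received CDA-HFD, a choline-deficient high-fat diet with defined amino acids that leads to steatohepatitis and fibrosis, and the labels give no duration for it. By the methods of the study the diet was given to males aged 6 to 12 weeks, the control animals were littermates, and the sorted cells were CD11b+ Ly6G- Ly6C-low F4/80+ monocyte-derived macrophages.

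A cell that divides copies its DNA in S phase and separates the copies in mitosis. Genes of S phase, such as those of the replicative helicase and of nucleotide synthesis, are switched on by E2F transcription factors when the retinoblastoma proteins release them. Genes of G2 and mitosis follow later, when the DREAM repressor leaves their promoters and B-MYB and FOXM1 act there, and many of their products are destroyed as the cell exits mitosis. Tissue macrophages can renew themselves by local division, and monocytes that enter an emptied niche can divide as they become resident cells.

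Summed transcripts of G2 and mitosis were more abundant in every Lyz2cre/+.Egr2fl/fl library than in any Egr2fl/fl library. The sum was 228.5 ± 42.3 TPM (a unit corrected for gene length and library size) in Lyz2cre/+.Egr2fl/fl macrophages and 149.6 ± 22.9 TPM in Egr2fl/fl macrophages (SD, n = 3 each), a ratio of 1.53. The sum of all 20 S phase genes had a ratio of 1.08, and its libraries overlapped. Without Pcna, the most abundant of them, the S phase sum was 466.9 ± 22.5 TPM in Lyz2cre/+.Egr2fl/fl and 388.4 ± 35.4 TPM in Egr2fl/fl macrophages, a ratio of 1.20. Pcna itself was slightly lower in every Lyz2cre/+.Egr2fl/fl library than in any Egr2fl/fl library, and was not called. Gene by gene, 4 of the 40 rose past the threshold of the model across all genes and 0 fell. Over all genes tested the shares were 4.38% higher and 1.87% lower. The 4 were the S phase genes Mcm6 and Uhrf1 and the mitotic genes Ccnb2 and Kif20a. Each of these calls was lost in some fits with 1 library left out, and all were lost with a replicate block. In bulk RNA a larger share of dividing cells and more RNA per dividing cell cannot be told apart.

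All 40 genes had a mean of at least 1 TPM and were tested with the rest of the 13777 genes above that level by limma on log2(TPM + 1), with Benjamini-Hochberg adjustment over all of them. Of all genes tested, 4.38% were higher and 1.87% lower at an adjusted p below 0.05. Among S phase genes, 2 of 20 were higher and 0 lower, and among genes of G2 and mitosis the counts were again 2 of 20 and 0. Voom on the reads recovered from the TPM values also called 0 lower in either phase, against 382 of all genes. At an unadjusted p below 0.05, 7 S phase genes and 13 genes of G2 and mitosis were higher and 0 of either phase lower, against 13.1% higher and 6.50% lower of all genes. All 3 Lyz2cre/+.Egr2fl/fl libraries were above all 3 Egr2fl/fl libraries for 8 S phase genes and 12 genes of G2 and mitosis, against 17.0% of all genes. The opposite order, with all Lyz2cre/+.Egr2fl/fl libraries below all Egr2fl/fl libraries, was found for 1 S phase gene (Pcna) and 0 genes of G2 and mitosis, against 8.27% of all genes. The difference was positive for 19 of 20 genes in each phase, against 58.3% of all genes. The median log2 difference, Lyz2cre/+.Egr2fl/fl minus Egr2fl/fl, was 0.59 for G2 and mitosis, 0.23 for S phase and 0.04 for all genes tested, and the difference between the phases was not tested. With 1 library left out, 1 S phase gene passed without Lyz2cre/+.Egr2fl/fl replicate 2 and 1 without Egr2fl/fl replicate 1, and 0 passed without any of the other 4. Likewise 0 genes of G2 and mitosis passed without Egr2fl/fl replicate 2 and 1 passed without each of the other 5, which was Cdc20 in place of Ccnb2 without Egr2fl/fl replicate 3.

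**Figure D1:**
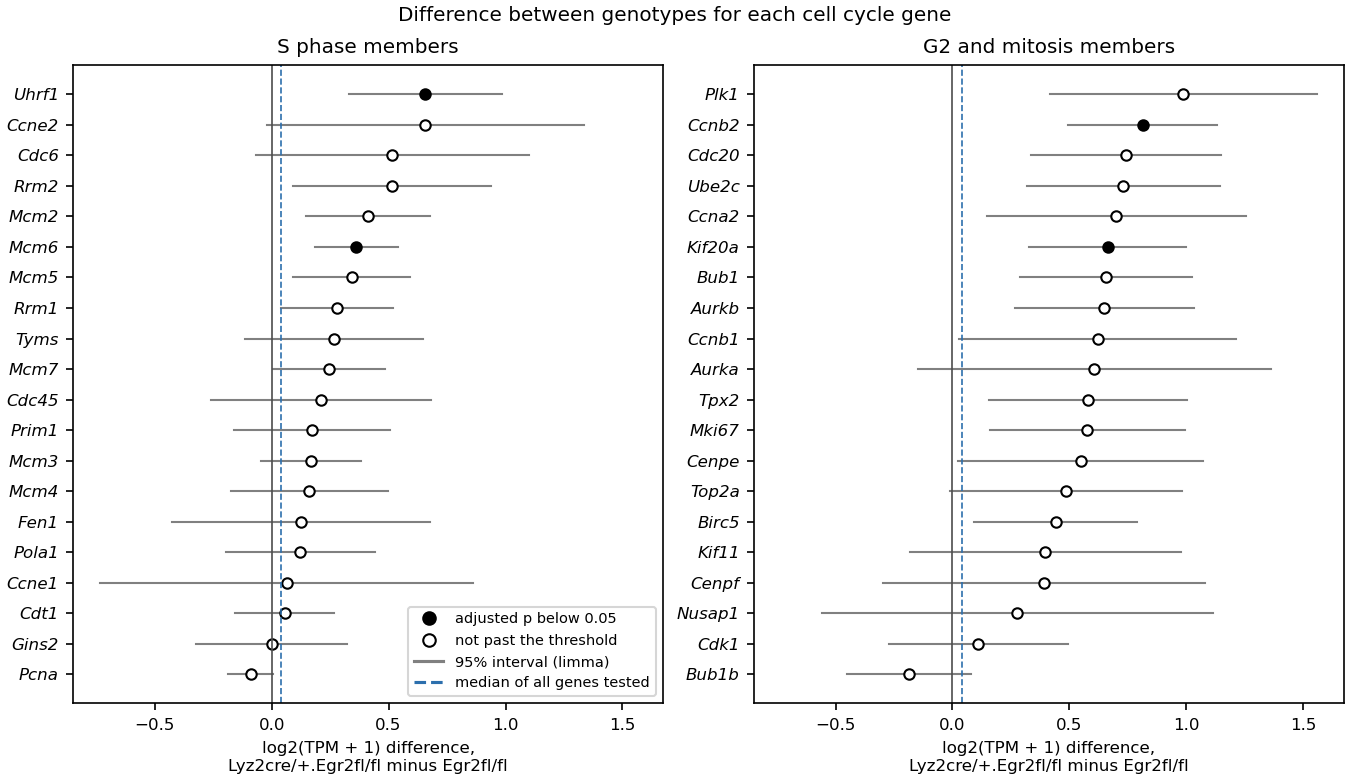
Log2(TPM + 1) difference, Lyz2cre/+.Egr2fl/fl minus Egr2fl/fl, for each S phase gene (left) and each gene of G2 and mitosis (right), with 95% intervals from limma (n = 3 libraries each). Filled points passed an adjusted p of 0.05, and the dashed line is the median of all genes tested, 0.04. Points of G2 and mitosis centre on 0.59 and those of S phase on 0.23, and Pcna and Bub1b are the 2 that lie to the left of 0.

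The Egr2 transcript followed the labels, at 9.08, 9.64 and 10.5 TPM in Lyz2cre/+.Egr2fl/fl libraries, against 122.6, 120.2 and 126.1 TPM in Egr2fl/fl libraries (limma adjusted p = 5.75e-06). The recovered reads came to at least 6497770 to 8569062 per library. The 8 macrophage markers summed to 13476 to 13970 TPM in Lyz2cre/+.Egr2fl/fl and 16450 to 18375 TPM in Egr2fl/fl libraries, with 3 higher and 1 lower. The lower one was Lyz2, the gene that carries Cre, at 6375 to 6608 TPM in Lyz2cre/+.Egr2fl/fl and 9945 to 11609 TPM in Egr2fl/fl libraries, and without it the sums were 7101 to 7362 TPM in Lyz2cre/+.Egr2fl/fl and 6505 to 6766 TPM in Egr2fl/fl libraries. All 10 endothelial markers were higher, with sums of 501.1, 568.8 and 533.7 TPM in Lyz2cre/+.Egr2fl/fl replicates 1 to 3 and 127.0 to 141.5 TPM in Egr2fl/fl libraries. Markers of neutrophils (S100a8 and S100a9) summed to 1.54 to 2.92 TPM in Lyz2cre/+.Egr2fl/fl and 6.87 to 11.9 TPM in Egr2fl/fl libraries, both lower, while Ly6g, Mpo and Elane were not analysed here. Those of erythroid cells summed to 5.06 to 14.4 TPM in Lyz2cre/+.Egr2fl/fl and 6.46 to 12.4 TPM in Egr2fl/fl libraries, with 0 of 2 called, and Alas2 and Klf1 were not analysed here. For T and NK cells the sums were 0.850 to 1.78 TPM in Lyz2cre/+.Egr2fl/fl and 2.83 to 5.66 TPM in Egr2fl/fl libraries (1 of 2 lower, with Cd3e, Cd3d and Trac not analysed here), and for B and plasma cells 1.80 to 5.03 TPM in Lyz2cre/+.Egr2fl/fl and 0.942 to 5.93 TPM in Egr2fl/fl libraries (0 of 2 called). Hepatocyte, dendritic cell, monocyte and stellate cell lists held 0 called genes by limma or voom, with 1 dendritic cell and 1 monocyte gene lower at an unadjusted p below 0.05. The part of other cells in the cell cycle differences was not tested.

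Promoter sequences were searched for the elements that time these genes, in RefSeq windows of 250 bases before to 50 bases after the transcription start (GRCm38.p6). Windows were given for 17 S phase genes, 16 genes of G2 and mitosis and 9387 of all genes tested, and Mcm4, Ccne2, Gins2, Ccna2, Aurkb, Kif20a and Tpx2 had none. The E2F element was taken as TTTGGCGC, TTTGCCGC, TTTCGCGC or TTTCCCGC, the CHR (cell cycle genes homology region, the element that MuvB complexes bind) as TTTGAA and the CCAAT box, bound by NF-Y, as CCAAT, each on both strands. An E2F element was found in 8 of 17 S phase genes (Mcm3, Mcm5, Mcm6, Mcm7, Cdc6, Cdt1, Uhrf1 and Pola1) and in 1 of 16 genes of G2 and mitosis (Cdk1), against 4.77% of all genes with a window. The CHR was found in 11 of 16 genes of G2 and mitosis (Mki67, Top2a, Ccnb2, Cdk1, Cdc20, Plk1, Aurka, Bub1b, Cenpf, Kif11 and Ube2c) and in 3 of 17 S phase genes (Mcm2, Cdc45 and Fen1), against 14.8%. CCAAT boxes were in 14 of 16 and 12 of 17, against 43.0%, and all 11 CHR promoters of G2 and mitosis had both, against 7.18% of all genes.

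**Figure D2:**
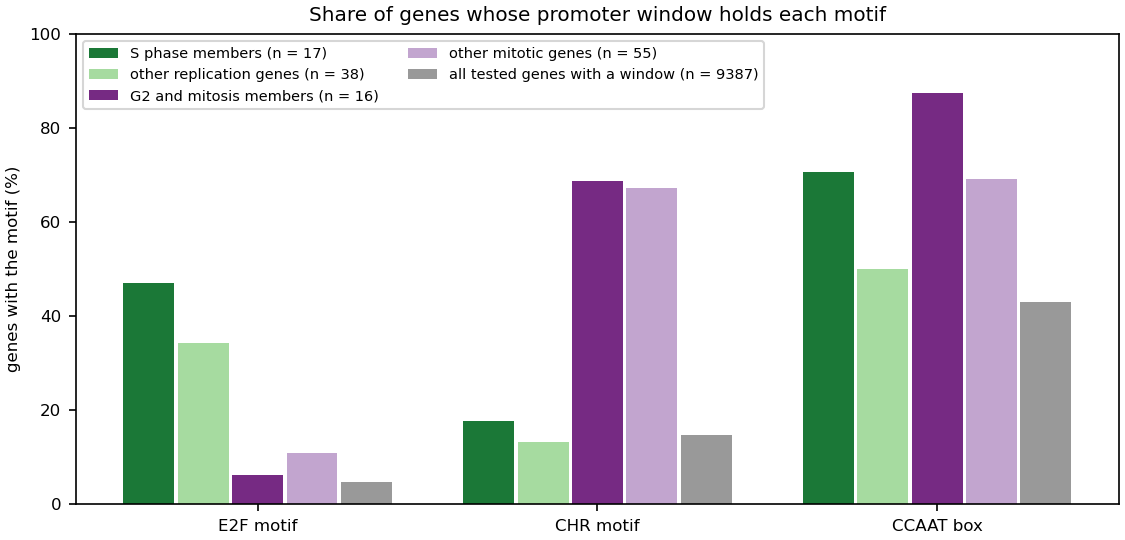
Percentage of genes whose promoter window (250 bases before to 50 bases after the RefSeq start) holds an E2F element, a CHR or a CCAAT box, for both phases, for the other genes of replication and of mitosis and for all tested genes with a window. The E2F bars are tallest for S phase (47.1%) and the CHR bars for G2 and mitosis (68.8%) and the other mitotic genes (67.3%), against 4.77% and 14.8% of all genes.

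The 190 bases upstream of the RefSeq start are shown 5′ to 3′ on the strand of the gene, with E2F elements, CHRs and CCAAT boxes in capitals, for both S phase genes called (Mcm6 and Uhrf1), for Mcm5 as a further helicase subunit with paired E2F elements, and for 4 promoters of G2 and mitosis. Mcm6 (chr1:128359706-128359895, minus strand) has an E2F element at -110 that is read on both strands, another at -47 and inverted CCAAT boxes at -57 and -14, counted to the first base of each. Uhrf1 (chr17:56304123-56304312, plus strand) is given at the later of its 2 starts, the one with an E2F element, at -185. Mcm5 (chr8:75109319-75109508, plus strand) has an E2F pair at -153 and -149 on opposite strands.
Mcm6: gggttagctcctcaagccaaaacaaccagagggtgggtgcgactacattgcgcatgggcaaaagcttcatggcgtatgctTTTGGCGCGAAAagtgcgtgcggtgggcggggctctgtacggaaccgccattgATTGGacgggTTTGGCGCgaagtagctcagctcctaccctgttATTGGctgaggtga
Uhrf1: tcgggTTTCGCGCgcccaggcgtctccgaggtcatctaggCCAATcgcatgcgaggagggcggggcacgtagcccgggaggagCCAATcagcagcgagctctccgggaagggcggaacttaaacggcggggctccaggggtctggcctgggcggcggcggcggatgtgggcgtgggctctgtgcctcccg
Mcm5: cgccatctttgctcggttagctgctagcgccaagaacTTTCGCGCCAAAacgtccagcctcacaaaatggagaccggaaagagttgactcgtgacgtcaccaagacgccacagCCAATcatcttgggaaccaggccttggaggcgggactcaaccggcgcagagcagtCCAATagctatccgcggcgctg
Ccnb2 (chr9:70421555-70421744, minus strand) has CHRs at -167 and, past the stretch shown, at 5 bases into the transcript, and 3 CCAAT boxes at -87, -54 and -21. Cdc20 (chr4:118437344-118437533, minus strand) has a CHR at -18 with CCAAT boxes at -53 and -8. Top2a (chr11:99024190-99024379, minus strand) has 5 CCAAT boxes in the stretch shown, 4 of them inverted, and a further inverted one before it, at -227. Its CHRs are at -179 and, inverted, at -23. Cdk1 (chr10:69352913-69353102, minus strand) is the gene of G2 and mitosis with both an E2F element, at -131, and CHRs, at -71 and -15.
Ccnb2: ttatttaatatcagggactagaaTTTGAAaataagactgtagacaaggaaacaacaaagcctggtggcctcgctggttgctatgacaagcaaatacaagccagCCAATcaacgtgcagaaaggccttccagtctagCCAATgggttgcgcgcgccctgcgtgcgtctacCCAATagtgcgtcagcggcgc
Cdc20: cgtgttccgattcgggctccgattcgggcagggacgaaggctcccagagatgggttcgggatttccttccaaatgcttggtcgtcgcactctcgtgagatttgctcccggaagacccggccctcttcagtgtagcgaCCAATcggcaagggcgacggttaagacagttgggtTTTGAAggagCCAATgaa
Top2a: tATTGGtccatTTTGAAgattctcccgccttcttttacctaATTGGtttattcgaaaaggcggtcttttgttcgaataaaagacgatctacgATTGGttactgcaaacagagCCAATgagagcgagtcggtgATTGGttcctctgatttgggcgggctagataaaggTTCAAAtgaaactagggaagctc
Cdk1: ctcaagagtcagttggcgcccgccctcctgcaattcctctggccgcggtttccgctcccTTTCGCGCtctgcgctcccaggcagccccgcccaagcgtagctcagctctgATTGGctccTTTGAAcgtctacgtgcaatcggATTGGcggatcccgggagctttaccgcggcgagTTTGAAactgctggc
A match describes these letters only. Genes of G2 and mitosis with a CHR had a median log2 difference of 0.58 (n = 11) and those without one 0.55 (n = 5), while S phase genes with an E2F element had 0.29 (n = 8) and those without 0.21 (n = 9).

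The replicative helicase leads the list of S phase genes. Mcm2 to Mcm7 encode the 6 subunits of the MCM ring, which is loaded on DNA before S phase and unwinds it at the fork, and together they summed to 296.5, 260.3 and 292.0 TPM in Lyz2cre/+.Egr2fl/fl libraries, against 254.2, 222.3 and 221.4 TPM in Egr2fl/fl libraries. The sums did not overlap, but Lyz2cre/+.Egr2fl/fl replicate 2 and Egr2fl/fl replicate 1 were within 6.10 TPM of each other. All 6 differences were positive, against 58.3% of all genes. Of the subunits, 4 were separated upward between genotypes, against 17.0%, and 1 was called higher, against 4.38%. Mcm6 had 56.1, 49.2 and 56.0 TPM in Lyz2cre/+.Egr2fl/fl libraries, against 42.9, 41.2 and 40.6 TPM in Egr2fl/fl libraries. This was a rise of 0.36 ± 0.08 on the log2 scale (SE, limma adjusted p = 0.0363), and the call was lost when any library other than Lyz2cre/+.Egr2fl/fl replicate 2 was left out (adjusted p up to 0.138). Mcm2 had 47.9, 41.2 and 38.6 TPM in Lyz2cre/+.Egr2fl/fl and 35.6, 30.9 and 28.8 TPM in Egr2fl/fl libraries (log2 difference 0.41 ± 0.11, limma adjusted p = 0.0908). Mcm5 had 47.0, 43.0 and 47.1 TPM in Lyz2cre/+.Egr2fl/fl and 40.8, 36.1 and 31.1 TPM in Egr2fl/fl libraries (0.34 ± 0.11, limma adjusted p = 0.129). Neither overlapped, and neither passed. Mcm3, the most abundant subunit, did overlap, with 70.0, 64.2 and 77.2 TPM in Lyz2cre/+.Egr2fl/fl and 66.2, 57.0 and 64.6 TPM in Egr2fl/fl libraries. Mcm7 was separated by a narrow gap, 39.9, 35.9 and 35.62 TPM in Lyz2cre/+.Egr2fl/fl against 35.61, 29.2 and 29.0 TPM in Egr2fl/fl libraries. Mcm4 overlapped, with Lyz2cre/+.Egr2fl/fl replicate 2 the lowest of all 6 libraries at 26.7 TPM.

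Origin licensing and firing factors differed little or were low. Cdt1, which loads the MCM ring and is destroyed once S phase starts, had 60.8, 65.9 and 63.3 TPM in Lyz2cre/+.Egr2fl/fl libraries, against 68.5, 55.1 and 59.7 TPM in Egr2fl/fl libraries. The groups overlapped fully, and its log2 difference of 0.06 was among the smallest of the phase. Its partner Cdc6 had 2.80, 2.74 and 4.07 TPM in Lyz2cre/+.Egr2fl/fl libraries, against 1.29, 2.08 and 2.48 TPM in Egr2fl/fl libraries (0.52 ± 0.25, limma adjusted p = 0.313). The Cdc6 groups were separated but rest on as few as 21 reads in 1 library. Cdc45 and Gins2, which join the MCM ring to form the active helicase, had log2 differences of 0.21 and 0.00. Gins2 had 6.03, 6.34 and 7.004 TPM in Lyz2cre/+.Egr2fl/fl and 6.27, 5.89 and 7.22 TPM in Egr2fl/fl libraries, the smallest difference of all 20. The E cyclins, which drive entry into S phase with CDK2, were near the lower limit. Ccne2 had 1.92, 3.51 and 4.27 TPM in Lyz2cre/+.Egr2fl/fl libraries, against 2.12, 1.20 and 1.59 TPM in Egr2fl/fl libraries (0.66 ± 0.29, limma adjusted p = 0.269), and Lyz2cre/+.Egr2fl/fl replicate 1 lay within the Egr2fl/fl range. Ccne1 had 1.81, 4.87 and 3.93 TPM in Lyz2cre/+.Egr2fl/fl and 4.71, 2.68 and 2.38 TPM in Egr2fl/fl libraries, with both genotypes spread over a wide range, and its difference turned negative in 6 of the alternative fits.

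Among genes that make nucleotides, Rrm1 and Rrm2, the large and small subunits of ribonucleotide reductase, were separated between genotypes. Rrm2 had 12.37, 16.2 and 18.4 TPM in Lyz2cre/+.Egr2fl/fl libraries, against 12.36, 10.8 and 8.66 TPM in Egr2fl/fl libraries (0.52 ± 0.18, limma adjusted p = 0.169). The separation hangs on a gap of 0.00502 TPM between Lyz2cre/+.Egr2fl/fl replicate 1 and Egr2fl/fl replicate 1. Rrm1 had 33.4, 30.9 and 36.5 TPM in Lyz2cre/+.Egr2fl/fl and 30.8, 26.3 and 25.6 TPM in Egr2fl/fl libraries (0.28 ± 0.10, limma adjusted p = 0.188). Thymidylate synthase, Tyms, overlapped and had means of 6.42 ± 0.242 TPM in Lyz2cre/+.Egr2fl/fl and 5.22 ± 1.05 TPM in Egr2fl/fl macrophages (SD, n = 3 each). Fork enzymes showed smaller differences. Pola1, Prim1 and Fen1, which start DNA strands and trim the flaps between fragments, had log2 differences of 0.12, 0.17 and 0.13, all overlapping and all with intervals that cross 0.

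Uhrf1 and Pcna stood at opposite ends of the S phase list. Uhrf1, which binds hemimethylated DNA behind the fork and brings in the maintenance methyltransferase Dnmt1, had 18.7, 16.7 and 19.8 TPM in Lyz2cre/+.Egr2fl/fl libraries, against 13.3, 11.5 and 9.44 TPM in Egr2fl/fl libraries. It rose by 0.66 ± 0.14 on the log2 scale, a ratio of means of 1.62 (limma adjusted p = 0.0381). The call was lost when any library other than Egr2fl/fl replicate 1 was left out (adjusted p up to 0.132). Pcna, the sliding clamp of DNA polymerases, was the most abundant of the 40 at 330.1, 320.0 and 320.3 TPM in Lyz2cre/+.Egr2fl/fl libraries, against 342.0, 342.6 and 348.2 TPM in Egr2fl/fl libraries. Every Lyz2cre/+.Egr2fl/fl library was below every Egr2fl/fl library, yet the difference was small, -0.09 ± 0.04 on the log2 scale (95% interval -0.19 to 0.01, limma adjusted p = 0.293). Pcna took 39.8% to 42.0% of the S phase sum in Lyz2cre/+.Egr2fl/fl and 44.3% to 48.6% in Egr2fl/fl libraries, and the sum with it included was 790.3 ± 24.8 TPM in Lyz2cre/+.Egr2fl/fl and 732.7 ± 33.5 TPM in Egr2fl/fl macrophages (SD, n = 3 each), with overlapping libraries. Pcna has the pseudogenes Pcna-ps1 and Pcna-ps2, and how their reads were counted is not given in the sources used here.

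**Figure D3:**
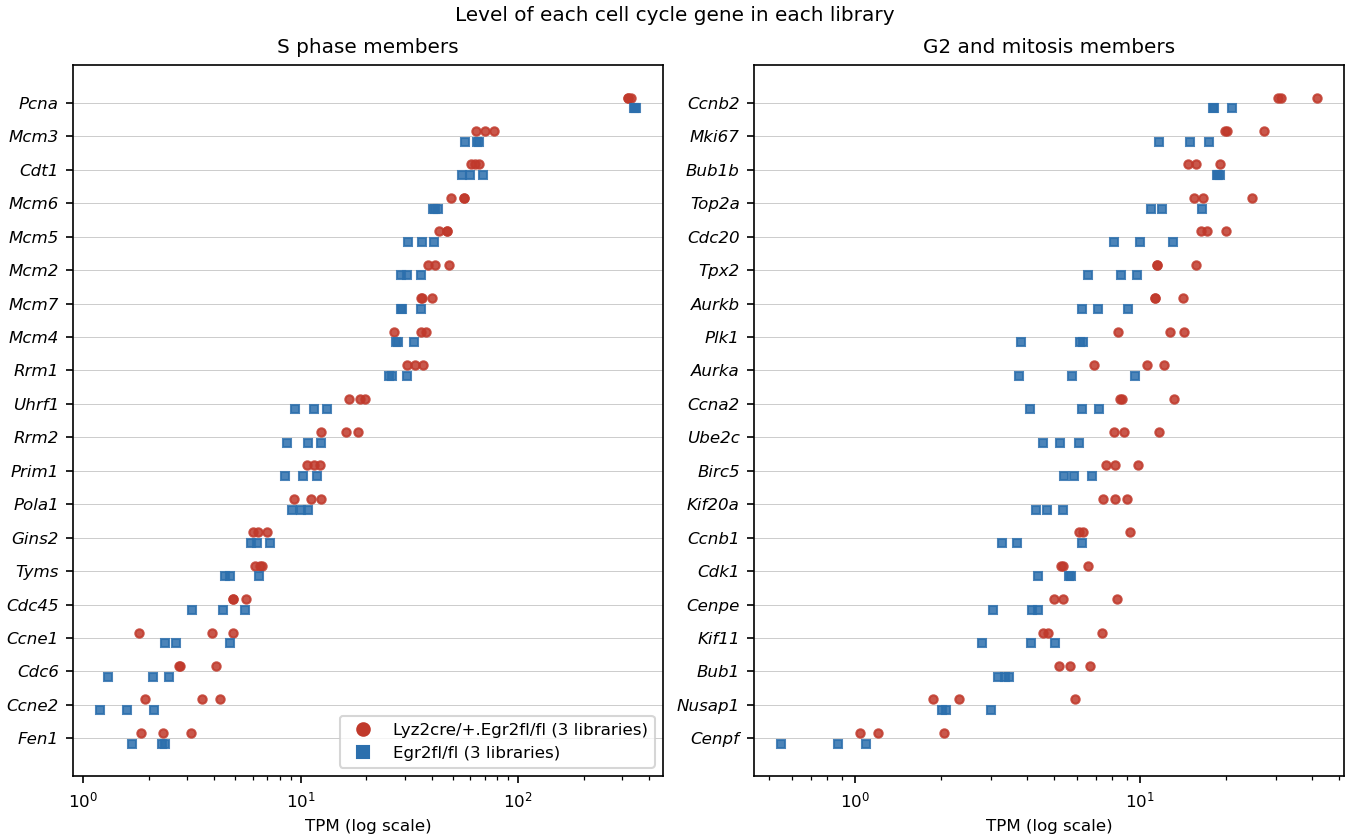
Level of each gene in TPM on a log axis, S phase genes on the left and genes of G2 and mitosis on the right, ordered by mean level, with Lyz2cre/+.Egr2fl/fl libraries as red circles and Egr2fl/fl libraries as blue squares (n = 3 each). Pcna at 320.0 to 348.2 TPM stands apart from all others, and for Ccnb2, Cdc20, Plk1 and Kif20a the red points lie clear of the blue ones.

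In G2 and mitosis the B and A cyclins and their kinase came first. Ccnb2, cyclin B2, was the most abundant of the phase and had 30.5, 31.3 and 41.7 TPM in Lyz2cre/+.Egr2fl/fl libraries, against 21.0, 18.0 and 18.2 TPM in Egr2fl/fl libraries. It rose by 0.81 ± 0.14 on the log2 scale, a ratio of means of 1.81 (limma adjusted p = 0.0158). Leaving out Egr2fl/fl replicate 2 or 3 ended the call (adjusted p = 0.0576 and 0.0569). Ccnb1, cyclin B1, had 6.10, 6.32 and 9.19 TPM in Lyz2cre/+.Egr2fl/fl libraries, against 6.27, 3.69 and 3.27 TPM in Egr2fl/fl libraries, and Egr2fl/fl replicate 1 overlapped the lower Lyz2cre/+.Egr2fl/fl libraries. Ccna2, cyclin A2, had 8.47, 8.67 and 13.2 TPM in Lyz2cre/+.Egr2fl/fl and 7.15, 4.12 and 6.27 TPM in Egr2fl/fl libraries (0.70 ± 0.23, limma adjusted p = 0.154), with no overlap. Cdk1, the kinase all these cyclins activate, differed far less, at 5.26, 5.37 and 6.57 TPM in Lyz2cre/+.Egr2fl/fl and 5.74, 4.37 and 5.62 TPM in Egr2fl/fl libraries (0.11 ± 0.16, limma adjusted p = 0.780). Ccnb1 and Ccnb2 each have a named pseudogene in the annotation.

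The kinases and the ubiquitin machinery of mitosis gave some of the widest gaps. Plk1, polo-like kinase 1, which acts from mitotic entry to cytokinesis, had 8.39, 12.8 and 14.3 TPM in Lyz2cre/+.Egr2fl/fl libraries, against 6.16, 3.83 and 6.33 TPM in Egr2fl/fl libraries. Its log2 difference of 0.99 ± 0.24 was the largest of the 40, with a ratio of means of 2.17, but it did not pass (limma adjusted p = 0.0641). Cdc20, which turns on the anaphase-promoting complex, had 16.3, 17.1 and 19.99 TPM in Lyz2cre/+.Egr2fl/fl libraries, against 10.0, 8.12 and 13.1 TPM in Egr2fl/fl libraries (0.74 ± 0.17, limma adjusted p = 0.0535). Ube2c, the ubiquitin-conjugating enzyme of that complex, had 8.07, 8.79 and 11.7 TPM in Lyz2cre/+.Egr2fl/fl and 6.12, 4.57 and 5.22 TPM in Egr2fl/fl libraries (0.73 ± 0.18, limma adjusted p = 0.0598). These 3 genes did not overlap and missed the threshold narrowly. Aurkb, the kinase of the chromosomal passenger complex, had 11.3, 11.3 and 14.1 TPM in Lyz2cre/+.Egr2fl/fl and 9.04, 6.27 and 7.12 TPM in Egr2fl/fl libraries (0.65 ± 0.16, limma adjusted p = 0.0670). Birc5 (survivin), of the same complex, was also separated, with means of 8.54 ± 1.16 TPM in Lyz2cre/+.Egr2fl/fl and 6.01 ± 0.685 TPM in Egr2fl/fl macrophages. Aurka, the spindle pole kinase, was the exception, since Egr2fl/fl replicate 1 at 9.57 TPM was above Lyz2cre/+.Egr2fl/fl replicate 1 at 6.90 TPM.

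The checkpoint pair Bub1 and Bub1b parted. Bub1, a kinetochore kinase, had 5.18, 5.69 and 6.69 TPM in Lyz2cre/+.Egr2fl/fl libraries, against 3.36, 3.47 and 3.17 TPM in Egr2fl/fl libraries (0.66 ± 0.16, limma adjusted p = 0.0586). Bub1b (BubR1), which holds back Cdc20 until chromosomes are attached, had 15.7, 14.7 and 19.1 TPM in Lyz2cre/+.Egr2fl/fl libraries, against 19.04, 18.6 and 18.7 TPM in Egr2fl/fl libraries. Bub1b is the single gene of the phase with a negative difference (-0.19 ± 0.11, limma adjusted p = 0.440), and Lyz2cre/+.Egr2fl/fl replicate 3 overlapped the Egr2fl/fl libraries. Its level also sat well above that of Bub1 in both genotypes, and among the Egr2fl/fl libraries it was nearly flat.

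Motor and spindle genes shared the direction. Kif20a, the kinesin of the central spindle needed for cytokinesis, had 8.14, 7.40 and 8.96 TPM in Lyz2cre/+.Egr2fl/fl libraries, against 4.72, 4.31 and 5.35 TPM in Egr2fl/fl libraries. It rose by 0.66 ± 0.14 on the log2 scale, a ratio of means of 1.70 (limma adjusted p = 0.0402). The call was lost whichever of the 6 libraries was left out (adjusted p of 0.0683 to 0.143), and the gene shares exon bases with Cdc23. Tpx2, an activator of Aurka on spindle microtubules, and Cenpe, a kinetochore motor, were separated with log2 differences of 0.58 and 0.55 (limma adjusted p = 0.129 and 0.233). Kif11, Cenpf and Nusap1 overlapped, with log2 differences of 0.40, 0.39 and 0.28. In Nusap1, a microtubule bundling protein, Lyz2cre/+.Egr2fl/fl replicate 3 stood alone at 5.91 TPM beside 1.88 and 2.32 TPM in the other Lyz2cre/+.Egr2fl/fl libraries, against 2.99, 2.08 and 2.01 TPM in Egr2fl/fl libraries. Without that library the Nusap1 difference was negative.

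The usual markers of dividing cells gave a mixed picture. Mki67, which encodes the Ki-67 protein that coats mitotic chromosomes, had 20.1, 19.8 and 27.1 TPM in Lyz2cre/+.Egr2fl/fl libraries, against 17.4, 11.6 and 15.01 TPM in Egr2fl/fl libraries. The groups did not overlap, but the log2 difference of 0.58 ± 0.18 did not pass (limma adjusted p = 0.125). Top2a, the topoisomerase that untangles sister chromatids, had 15.4, 16.6 and 24.6 TPM in Lyz2cre/+.Egr2fl/fl libraries, against 16.5, 10.9 and 12.0 TPM in Egr2fl/fl libraries (0.49 ± 0.21, limma adjusted p = 0.264). Here Egr2fl/fl replicate 1 was above Lyz2cre/+.Egr2fl/fl replicate 1. With Pcna lower in every Lyz2cre/+.Egr2fl/fl library and Cdk1 nearly equal, none of Mki67, Top2a, Pcna, Mcm2 and Cdk1 passed the threshold in limma on log2(TPM + 1). Voom on recovered reads called Mki67 and Mcm2 (adjusted p = 0.0386 and 0.0475).

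Genes of G2 and mitosis varied together among libraries of the same genotype, so counts of these genes are not counts of independent results. The summed levels were 198.1, 210.6 and 276.9 TPM in Lyz2cre/+.Egr2fl/fl replicates 1, 2 and 3 and 171.8, 126.1 and 150.9 TPM in Egr2fl/fl replicates 1, 2 and 3. Lyz2cre/+.Egr2fl/fl replicate 3 was the highest of all 6 libraries for 19 of 20 genes (the other was Aurka), where it was highest for 26.0% of all genes tested. Egr2fl/fl replicate 2 was the lowest for 16 of 20, where it was lowest for 22.1% of all genes. The sums of the genotypes did not overlap, and leaving out 1 library at a time gave ratios of 1.37, without Lyz2cre/+.Egr2fl/fl replicate 3, to 1.65, without Egr2fl/fl replicate 1. Without Egr2fl/fl replicate 2 the ratio was 1.42. The median log2 difference of the phase was 0.45 without Lyz2cre/+.Egr2fl/fl replicate 3 and 0.43 without Egr2fl/fl replicate 2. In S phase Lyz2cre/+.Egr2fl/fl replicate 3 was again the library most often highest, for 9 of 20 genes, while Egr2fl/fl replicate 3 was most often lowest, for 10, and the S phase sums without Pcna were 473.8, 441.7 and 485.1 TPM in Lyz2cre/+.Egr2fl/fl libraries, against 429.3, 368.0 and 368.0 TPM in Egr2fl/fl libraries. Deviations from the genotype means correlated with a median r of 0.79 over the 190 gene pairs within G2 and mitosis, 0.27 over the 190 pairs within S phase and 0.38 over the 400 pairs between phases, each r over the same 6 libraries and given as a description. No such value for pairs of all genes is given here. The endothelial sums beside them were 501.1, 568.8 and 533.7 TPM in Lyz2cre/+.Egr2fl/fl replicates 1 to 3, highest in replicate 2. In Egr2fl/fl replicates 1 to 3 they were 141.5, 131.6 and 127.0 TPM. By gene, Pecam1, Eng and Egfl7 were highest in Lyz2cre/+.Egr2fl/fl replicate 3, Tek in replicate 1 and the other endothelial markers in replicate 2. The erythroid sum was highest in Lyz2cre/+.Egr2fl/fl replicate 3 (14.4 TPM, against 12.4 TPM in the highest Egr2fl/fl library), through Hbb-bs (12.0 TPM, 22 reads). Hba-a1 was at 2.44 TPM there, lowest of the Lyz2cre/+.Egr2fl/fl libraries. The stellate cell sum was also highest of all in that library (18.4 TPM) and lowest in Egr2fl/fl replicate 2 (7.60 TPM). Hepatocyte sums were lowest in Egr2fl/fl replicate 2 (62.6 TPM) but highest in Egr2fl/fl replicate 3 (494.4 TPM, against 209.4 TPM in Lyz2cre/+.Egr2fl/fl replicate 3). Their part in the order of libraries was not tested.

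**Figure D4:**
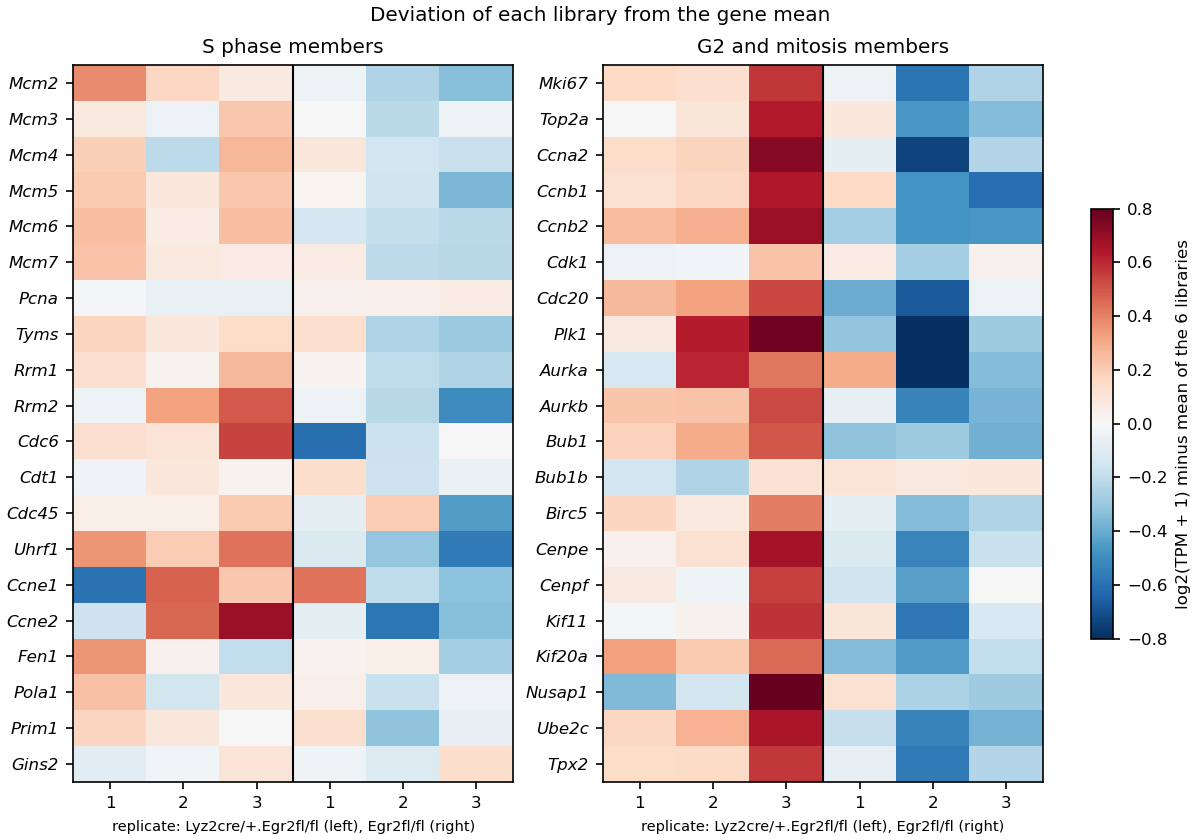
Deviation of each library from the mean of all 6 in log2(TPM + 1), red above and blue below, for the S phase genes (left) and genes of G2 and mitosis (right), with Lyz2cre/+.Egr2fl/fl replicates 1 to 3 left of the line and Egr2fl/fl replicates 1 to 3 right of it. Lyz2cre/+.Egr2fl/fl replicate 3 is the deepest red column of G2 and mitosis (highest for 19 of 20 genes) and Egr2fl/fl replicate 2 the deepest blue one (lowest for 16 of 20). In S phase the same Lyz2cre/+.Egr2fl/fl library is highest for 9 of 20 genes and Egr2fl/fl replicate 3 is lowest for 10.

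**Figure D5:**
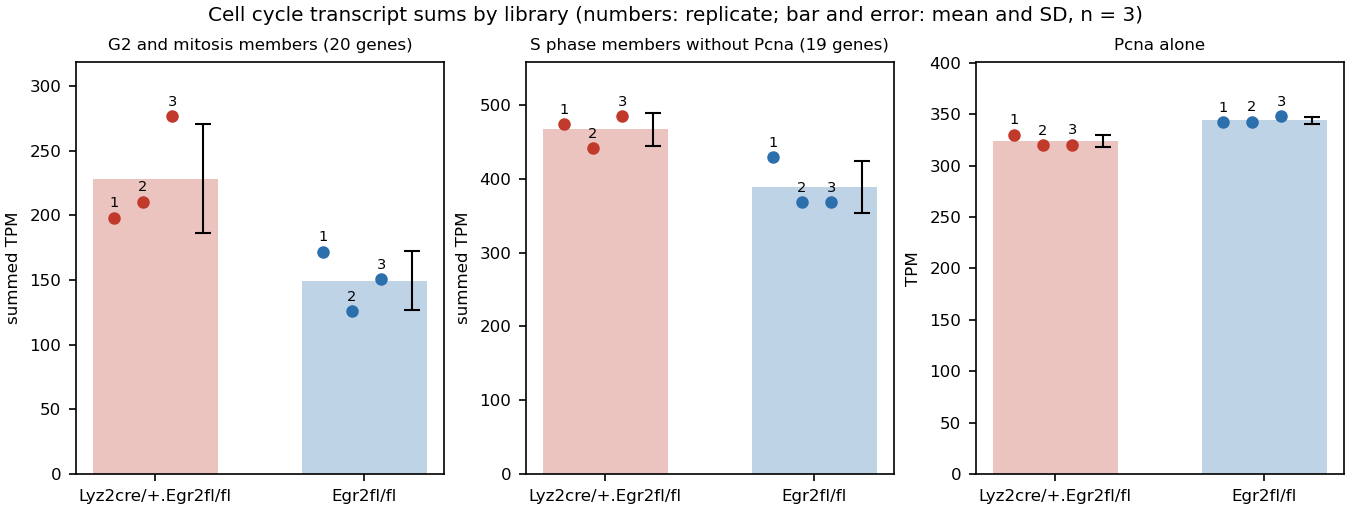
Summed TPM of the 20 genes of G2 and mitosis, of the 19 S phase genes other than Pcna, and of Pcna alone, with points for the libraries (numbered by replicate), bars for the mean and error bars for the SD (n = 3 each). Lyz2cre/+.Egr2fl/fl libraries lie at 198.1 to 276.9 TPM in the first panel, all above the Egr2fl/fl libraries at 126.1 to 171.8 TPM, while in the Pcna panel they lie at 320.0 to 330.1 TPM, all below 342.0 to 348.2 TPM.

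Relative to S phase, late transcripts took a larger share in Lyz2cre/+.Egr2fl/fl libraries. The ratio of the G2 and mitosis sum to the S phase sum without Pcna was 0.418, 0.477 and 0.571 in Lyz2cre/+.Egr2fl/fl libraries, against 0.400, 0.343 and 0.410 in Egr2fl/fl libraries. The groups were separated by a gap of 0.00826 between Lyz2cre/+.Egr2fl/fl replicate 1 and Egr2fl/fl replicate 3 and the difference was not tested. The transcripts stayed rare throughout, since those of G2 and mitosis made up 0.0199%, 0.0211% and 0.0278% of all TPM in Lyz2cre/+.Egr2fl/fl libraries and 0.0172%, 0.0126% and 0.0151% in Egr2fl/fl libraries.

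Further genes of the cycle were read by role. Of 65 other mitotic genes tested, 5 rose and 0 fell (0 lower also at an unadjusted p below 0.05 and in voom), against 4.38% and 1.87% of all genes. A positive difference was found for 63, against 58.3%, 34 were separated upward, against 17.0%, and the median log2 difference was 0.39. Kif23 and Racgap1, which form the centralspindlin complex of the cleavage furrow, rose by 0.93 ± 0.13 and 0.72 ± 0.14 (limma adjusted p = 0.00909 and 0.0320). Kif23 had 16.7, 19.6 and 18.9 TPM in Lyz2cre/+.Egr2fl/fl libraries, against 10.8, 8.90 and 7.99 TPM in Egr2fl/fl libraries, and it was called in all 6 fits with a library left out but not with a replicate block (adjusted p = 0.0501). Cenpm, a centromere protein, had 5.11, 6.23 and 4.54 TPM in Lyz2cre/+.Egr2fl/fl libraries, against 2.21, 1.59 and 1.41 TPM in Egr2fl/fl libraries (1.20 ± 0.20, limma adjusted p = 0.0168), the largest difference of that list. Stmn1, which destabilises microtubules, had 83.1, 87.9 and 118.6 TPM in Lyz2cre/+.Egr2fl/fl libraries, against 67.7, 52.7 and 59.3 TPM in Egr2fl/fl libraries (limma adjusted p = 0.0466). Cdca8 (borealin), a passenger complex subunit, was the fifth (0.53 ± 0.12, limma adjusted p = 0.0484). The calls of Stmn1 and Cdca8 were lost whichever library was left out, that of Racgap1 without any library but Egr2fl/fl replicate 1, and that of Cenpm without Lyz2cre/+.Egr2fl/fl replicate 1 or 2 or Egr2fl/fl replicate 2 or 3 (adjusted p up to 0.134, 0.147, 0.0998 and 0.0719 for Stmn1, Cdca8, Racgap1 and Cenpm). The most abundant of the list, H2az1 and Tubb5, also serve cells that do not divide and had log2 differences of 0.00 and 0.07. The CHR was in 37 of the 55 promoters given for the list.

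Of 50 other replication genes tested, 1 rose and 0 fell, against 4.38% and 1.87% of all genes. At an unadjusted p below 0.05, 9 were higher and 1 lower, against 13.1% and 6.50%. Voom called 1 of them higher and 0 lower, against 776 and 382 of all genes. A positive difference was found for 39, against 58.3%, and the median was 0.14. Tk1, thymidine kinase of the salvage route, had 88.9, 77.8 and 84.6 TPM in Lyz2cre/+.Egr2fl/fl libraries, against 69.2, 56.6 and 58.0 TPM in Egr2fl/fl libraries. It rose by 0.45 ± 0.09 (limma adjusted p = 0.0374), a call lost without any library but Egr2fl/fl replicate 1 (adjusted p up to 0.134). Dnmt1, among the most abundant of the list, overlapped at 56.8, 46.4 and 57.1 TPM in Lyz2cre/+.Egr2fl/fl and 56.7, 42.1 and 49.3 TPM in Egr2fl/fl libraries. An E2F element was in 13 of the 38 promoters given for the list.

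Upstream of S phase, 1 of 25 genes of G1 and the E2F pathway rose and 0 fell, against 4.38% and 1.87% of all genes, with a median log2 difference of 0.18. The difference was positive for 21, against 58.3%. Of the 25, 8 were separated upward and 1 downward, against 17.0% and 8.27%. At an unadjusted p below 0.05, 7 were higher and 0 lower, against 13.1% and 6.50%. Voom called 2 of them higher and 0 lower, against 776 and 382 of all genes. Ccnd3, the cyclin D3 that works with CDK4 and CDK6, had 48.2, 50.2 and 52.6 TPM in Lyz2cre/+.Egr2fl/fl libraries, against 32.8, 33.8 and 29.5 TPM in Egr2fl/fl libraries. The groups were far apart for their spread, with a rise of 0.64 ± 0.08 (limma adjusted p = 0.00514), and the call held in all 6 fits with a library left out. Cdk4 itself had 112.2, 110.0 and 108.4 TPM in Lyz2cre/+.Egr2fl/fl libraries, against 104.3, 97.4 and 90.6 TPM in Egr2fl/fl libraries, separated but not called (0.18 ± 0.07, limma adjusted p = 0.187). E2f4, a member of the DREAM repressor and the other abundant gene of the list, overlapped (0.12 ± 0.06). Foxm1 was separated upward but not called (0.62 ± 0.20, limma adjusted p = 0.147). Mybl2 (B-MYB) overlapped (0.37 ± 0.26, limma adjusted p = 0.514). Of 17 inhibitors of cyclin-dependent kinases and other brakes, 0 rose and 1 fell, against 4.38% and 1.87% of all genes, with a median of 0.05. At an unadjusted p below 0.05, 1 was higher and 3 lower, against 13.1% and 6.50%. Voom called 0 higher and 3 lower brakes. Gadd45a, a stress gene that can halt cells in G2, fell to 14.5, 17.5 and 14.2 TPM in Lyz2cre/+.Egr2fl/fl libraries, against 23.9, 25.7 and 21.4 TPM in Egr2fl/fl libraries (-0.59 ± 0.12, limma adjusted p = 0.0287), a call that did not hold without Lyz2cre/+.Egr2fl/fl replicate 1 or 3 or Egr2fl/fl replicate 1 or 2 (adjusted p up to 0.112). The antiproliferative genes Btg1 and Btg2 were the most abundant brakes, and neither passed (-0.23 ± 0.07 and -0.17 ± 0.19). Btg1 was lower in every Lyz2cre/+.Egr2fl/fl library than in any Egr2fl/fl library, and Btg2 overlapped. The kinase inhibitor Cdkn1a was also separated downward and not called (-0.45 ± 0.13, limma adjusted p = 0.109). Of the 17 brakes, 3 were separated downward and 1 upward, against 8.27% and 17.0% of all genes.

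Regulators of macrophage growth went in both directions, with 4 of 16 higher and 1 lower, against 4.38% and 1.87% of all genes, and a median log2 difference of 0.03. Voom called 5 higher and 3 lower, against 776 and 382 of all genes. Maf, a transcription factor that restrains macrophage self-renewal, had 171.7, 165.7 and 171.7 TPM in Lyz2cre/+.Egr2fl/fl libraries, against 127.0, 107.7 and 122.3 TPM in Egr2fl/fl libraries (0.51 ± 0.07, limma adjusted p = 0.00778). Csf2ra, the ligand-binding chain of the GM-CSF receptor, fell to 623.5, 640.9 and 707.6 TPM in Lyz2cre/+.Egr2fl/fl libraries, against 903.6, 860.9 and 846.8 TPM in Egr2fl/fl libraries (-0.41 ± 0.06, limma adjusted p = 0.00958). Both calls held with any library left out, but that of Csf2ra was lost in limma without trend (adjusted p = 0.0543) and with a replicate block (0.0523). Gas6, a ligand of Axl and Mertk, had 44.1, 36.4 and 33.2 TPM in Lyz2cre/+.Egr2fl/fl libraries, against 15.7, 16.1 and 23.3 TPM in Egr2fl/fl libraries (1.02 ± 0.17, limma adjusted p = 0.0163), a call that ended on leaving out Lyz2cre/+.Egr2fl/fl replicate 1 or Egr2fl/fl replicate 1 or 2 (adjusted p up to 0.0644). Nr1h3 (LXR alpha) and Id3, which act in Kupffer cell identity, rose by 0.26 and 0.29 (limma adjusted p = 0.0248 and 0.0442), and both calls were lost under median-of-ratios scaling (adjusted p = 0.137 and 0.149). Leaving out any library but Lyz2cre/+.Egr2fl/fl replicate 3 ended the call of Nr1h3, and leaving out any library ended that of Id3 (adjusted p up to 0.108 and 0.155). Csf1r, the receptor for the main growth factor of macrophages, had 1925, 1827 and 1990 TPM in Lyz2cre/+.Egr2fl/fl libraries, against 1820, 1785 and 1621 TPM in Egr2fl/fl libraries. It was separated but not called (0.14 ± 0.06, limma adjusted p = 0.264), and Axl overlapped (-0.02 ± 0.05).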

How the data were processed

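Total RNA of sorted liver macrophages was made into directional libraries with an RNeasy Micro and a NEBNext kit, per the labels. By contrast, the published methods give SMART-Seq HT and Nextera XT as the bulk method and keep the NEBNext kit for a different sort, so both sources conflict for these libraries, and which kit was used was not settled here. The authors trimmed reads with Trimmomatic 0.39.0, aligned them with HISAT2 2.2.1 (GRCm38, mm10), dropped duplicate reads, used featureCounts 2.0.1 for counts per gene and deposited TPM values. Whether counting used strand is not given in the sources used here, and 12 of the 40 genes share exon bases with another gene (GENCODE vM21). TPM removes library size, so a gene can differ because others do, and duplicate removal can lower abundant genes.

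The 13777 of 13886 genes whose mean reached 1 TPM were compared on log2(TPM + 1), a scale that understates differences of low genes, with limma 3.58.1 in R 4.3.3 (trend, no covariates, 2-sided, all 6 libraries, Benjamini-Hochberg, threshold 0.05). The fit was also run on simulated data in which each gene was drawn independently. Those data do not cover genes that vary together, as those of G2 and mitosis did here. Values after ± are SD for TPM and SE for log2 differences, and intervals are 95% intervals of limma. Whole reads were recovered from the TPM steps for all 13886 genes (tolerance 0.001 of a read, 100% whole) and are lower bounds. The 40 genes rest on 95 reads (Fen1) to 8785 reads (Pcna) over all libraries. The members and lists were chosen with earlier results of these data known. Values by library are given for called genes, the 5 most abundant and those with the 3 largest and 2 smallest absolute differences in each phase, and the markers Mki67, Top2a, Pcna, Mcm2 and Cdk1, with further members added after their values were seen. For other lists the genes are those called (up to 6) and the 2 most abundant, with Foxm1, Mybl2 and Cdkn1a added after their values were seen. List names E2f7, Mycn, Cdkn2b, Exo1, Cenpw, Il34 and Csf2 were not analysed here. Promoters are from RefSeq. Alternatives covered pseudocount, filter, scaling, trend, robust variances, replicate block, threshold, each library left out, marker genes left out and voom on recovered reads.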

Additional observations from a re-analysis of the deposited data

How the results depend on the processing

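With 1 library left out, 0 to 1 S phase genes and 0 to 1 genes of G2 and mitosis were higher, against 2 and 2 with all libraries, and 303 to 437 genes of all tested were higher and 136 to 202 lower, against 603 and 257. Limma without trend called 0 S phase genes, 3 genes of G2 and mitosis and, of all tested, 468 higher and 160 lower genes. At an adjusted p below 0.01, 0 genes of either phase were higher, with 243 higher and 98 lower of all genes. At an adjusted p below 0.1, 7 genes of G2 and mitosis and 3 of S phase were higher, with 868 higher and 374 lower of all genes. At an unadjusted p below 0.05, 7 S phase genes, 13 genes of G2 and mitosis and 1808 genes of all tested were higher and 896 lower. Voom on recovered reads called 7 genes of G2 and mitosis (Mki67, Ccnb2, Cdc20, Plk1, Bub1, Kif20a and Ube2c) and 3 of S phase (Mcm2, Mcm6 and Uhrf1). It also called more of all genes, 776 higher and 382 lower, against 603 and 257. Apart from fewer libraries and the other thresholds, the cause was not tested.

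Replicate numbers are shared between genotypes in the titles, but the description of Egr2fl/fl replicate 3 names it WT4. Same-numbered libraries deviated together with r of -0.03, 0.07 and -0.01, and so few pairs cannot show whether the numbers pair them. A replicate block left 0 S phase genes, 0 genes of G2 and mitosis, 301 higher and 130 lower genes of all tested, and not every library correlated best with its own number.

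The median log2 difference stayed between 0.16 and 0.32 for S phase and between 0.40 and 0.69 for G2 and mitosis in all alternatives. Of 710 values of single members under alternatives, 15 had the other sign (Ccne1 and Gins2 6 each, Cdt1, Fen1 and Nusap1 1 each). Median-of-ratios scaling moved the median of all genes to -0.01. Depth limits low genes most, since Ccne1 and Ccne2 had as few as 10 reads in 1 library.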
